A study of Mus musculus with 14 samples.

Results

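The nuclear-encoded subunits of the mitochondrial respiratory chain were followed through liver and kidney RNA of mice on a normal or a high salt diet. Members were all rows of the gene count tables whose symbol begins with Nduf and a subunit letter and number, Sdha to Sdhd, Uqcr, Cox followed by a number from 4 to 8, or Atp5. This took 98 rows, the same in both tables, of 19660 rows in liver and 20203 in kidney. Of these, 43 belong by name to complex I, 4 to complex II, 10 to complex III, 19 to complex IV and 22 to complex V. Among the 98, 15 rows are copies of another member (14 of them annotated as processed pseudogenes, and Cox5b-ps as protein coding), and 83 are not. The name rule leaves out Ndufab1 and Cyc1, which also encode subunits, and takes Ndufa4 as complex I although its protein is now placed in complex IV.

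All mice were adult males of 12 weeks that carried a human angiotensinogen transgene with the haplotype Hap -6A, on both diets and in both tissues, and no mice without the transgene are among the samples used here. The labels give neither the strain nor the salt dose or its duration. Liver held 4 normal diet libraries and 4 high salt libraries, and kidney held 3 and 3. The names of the high salt liver libraries in the table, HS5 to HS8, fit their group but no single sample title, and are used here as given. Nothing in the labels says whether libraries come from separate animals, and p-values then measure the spread between libraries only.

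The respiratory chain passes electrons from NADH through complex I, or from succinate through complex II, to complex III and then to oxygen at complex IV. Complexes I, III and IV pump protons across the inner mitochondrial membrane, and complex V, the ATP synthase, uses their return flow to make ATP. Most subunits are encoded in the nucleus, but a few core subunits of complexes I, III, IV and V come from the mitochondrial genome and are not members here. Liver cells and kidney tubule cells are both rich in mitochondria, and sodium reabsorption by the tubule is a large consumer of ATP.

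Liver libraries held 37267778 to 51487382 counts and kidney libraries 16046094 to 22004927. Transcripts of the mitochondrial genome took 2.06% to 29.6% of the counts in liver and 23.5% to 41.2% in kidney, so these rows were left out of every total. Normal diet liver libraries 1 and 2 stood apart with shares of 2.3% and 2.06%, while the other 6 liver libraries lay between 11.3% and 29.6%. High salt libraries HS5 and HS6 were more alike than any other pair of one group, with a chi-square per gene of 1.85 against 4.97 to 71.6 in the other 17 pairs, a value that sampling noise alone would put near 1. They were kept as 2 libraries, and the liver diet results with their counts summed are given below. Hepatocyte markers summed to 80614 to 169140.3 scaled CPM (a count scaled to the library's total and composition) in liver and 1006 to 1924 in kidney. Kidney tubule markers summed to 28295 to 61573 in kidney and 0.83 to 71.2 in liver, so each tissue matched its label.

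The members' messages are short. Their coding sequences run from 159 to 2184 bases with a median of 404, against a median of 1344 for the other genes, and 63 of 82 are shorter than 600 bases. Of the 83 members that are not copies, 67 had an entry in the RefSeq promoter table (build GRCm38.p6). In the 250 bases before the start, 13 of these 67 (19.4%) held the NRF1 motif on either strand, 10 bases with GCGC at both ends, searched without mismatch. NRF1 is a transcription factor known to act on respiratory chain genes. Over all 27025 genes in the table the share was 4.23%. CCGGAAG or its reverse complement CTTCCGG, letters of the ETS family to which GABP belongs, stood in 12 of 67 (17.9%) against 7.83% of all genes. TCAAGGTCA or TGACCTTGA, letters of the estrogen-related receptors, stood in 1 of 67 (1.49%), the c-ring gene Atp5g3, against 0.422%. The windows of members were somewhat richer in G and C, with a median of 56.4% against 52.8%, and a match of letters is a description, not a bound site.

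The 200 bases before the RefSeq starts of 2 members from complexes IV and V are shown because they carry these letters. The first lies at chr5:115348959-115349158 on the minus strand, upstream of Cox6a1, and the second at chr5:108434400-108434599 on the minus strand, upstream of Atp5k (GRCm38.p6). Sequences are written 5′ to 3′ on the strand of the gene, with matches to the NRF1 motif and the ETS letters in capitals.
Cox6a1: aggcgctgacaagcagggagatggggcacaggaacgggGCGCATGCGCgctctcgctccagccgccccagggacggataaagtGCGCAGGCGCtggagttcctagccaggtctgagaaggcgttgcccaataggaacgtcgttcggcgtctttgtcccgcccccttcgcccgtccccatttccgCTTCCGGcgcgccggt
Atp5k: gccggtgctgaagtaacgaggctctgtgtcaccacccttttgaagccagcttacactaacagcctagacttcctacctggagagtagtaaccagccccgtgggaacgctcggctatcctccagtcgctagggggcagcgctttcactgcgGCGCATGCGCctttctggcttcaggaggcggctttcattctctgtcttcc
Cox6a1 holds both kinds of match, and Atp5k holds the NRF1 motif only.

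CPM (counts scaled to a library total of 1000000, with mitochondrial rows left out of the total) summed over the 98 members came to 15189 ± 1789.7 in normal diet liver (SD, n = 4), 14469 ± 1655 in high salt liver (n = 4), 28848 ± 9017 in normal diet kidney (n = 3) and 25808 ± 5046 in high salt kidney (n = 3). The members thus took 1.33% to 1.69% of a liver library and 1.84% to 3.44% of a kidney library. Every kidney sum lay above every liver sum, but the order of the tissues depends on the scaling. Hepatocytes make a few secreted-protein messages in great amounts, and the TMM factors that allow for unequal composition were 0.65 to 0.90 in liver and 1.33 to 1.51 in kidney. Divided by these factors, values are called scaled CPM, and the sums of complex I ran from 4523 to 7896 scaled CPM in liver and from 3603 to 8351 in kidney, so the tissues overlapped. In bulk RNA, fewer cells of a type and less RNA per cell cannot be told apart.

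Complex by complex, kidney exceeded liver most in complex IV on the unscaled CPM. Complex IV rows summed to 2658 ± 324 CPM in normal diet liver and 6893 ± 2842 in normal diet kidney. Complex I rows summed to 4649 ± 575 and 9188 ± 3351, and complex V rows to 4979.7 ± 359 and 8523 ± 1754. Complex III rows summed to 1805 ± 346 and 3002 ± 998. Complex II, which has no subunit in the mitochondrial genome and links the chain to the tricarboxylic acid cycle, stood at 1097 ± 238 in liver and 1242 ± 91 in kidney (SD; n = 4 liver and 3 kidney libraries throughout). Within kidney the ratio of the complex IV sum to the complex II sum ran from 3.13 to 6.88, and within liver from 1.79 to 2.94.

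**Figure D1:**
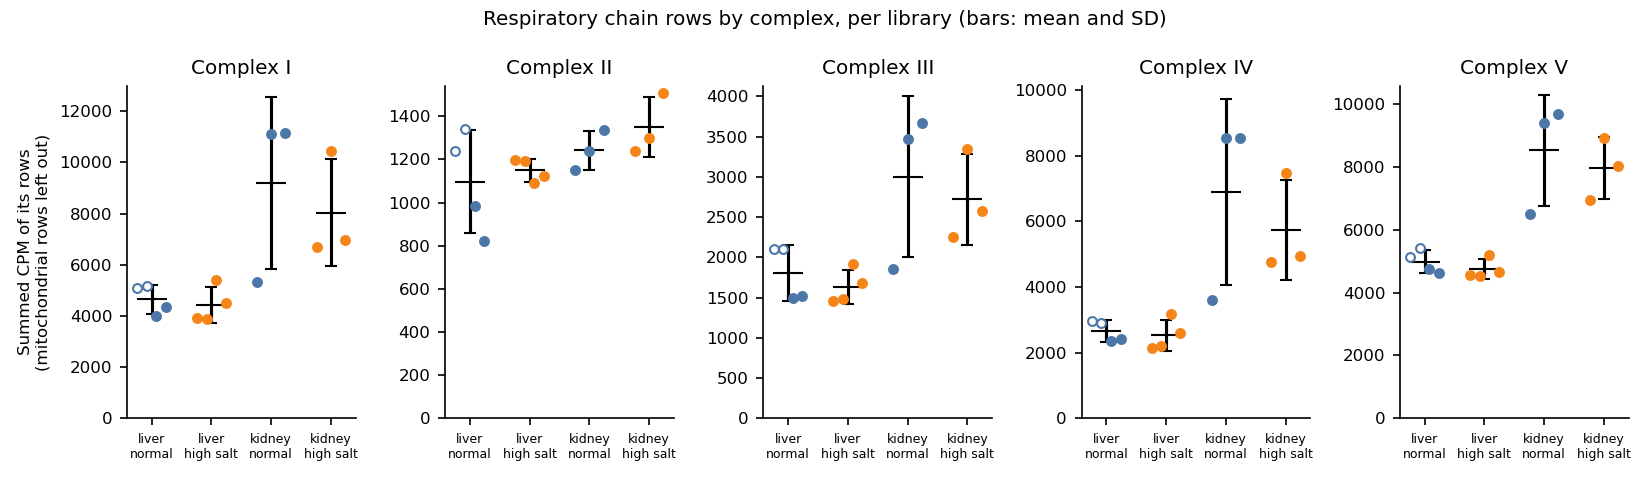
Summed CPM of the rows of each complex (vertical axis, from 0) in every library, by tissue and diet, with the mean and SD as black bars; open circles are normal diet liver libraries 1 and 2. Normal diet kidney library 1 lies at 3611 CPM in complex IV, below the 8523 and 8545 of libraries 2 and 3, whereas complex II is even across kidney libraries.

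Kidney libraries of the same diet differed far more than liver libraries. On the normal diet, library 1 held 18442 CPM of members and libraries 2 and 3 held 33729 and 34372. On high salt, library 2 held 31508 CPM, library 1 held 21909 and library 3 held 24007. The highest normal diet sum was 2.37 times the lowest in complex IV and 2.09 times in complex I, but 1.16 times in complex II. The spread thus differed between complexes of one library.

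That spread followed the length of the message. Ndufa4, a subunit of 249 coding bases, stood at 494, 1896 and 1839 scaled CPM in normal diet kidney libraries 1 to 3 and at 749, 1549 and 589 in the high salt ones. Ndufs1, the largest iron-sulphur subunit of complex I with 2184 coding bases, stood at 171, 125 and 117 and at 168, 129 and 164. Libraries that were high for the short message were low for the long one. Relative to the mean of the 6 kidney libraries, the 22 members with under 300 coding bases had a median log2 deviation of -0.90 in normal diet library 1, 0.68 in library 2 and 0.72 in library 3. On the high salt diet their medians were -0.46, 0.47 and -0.44. For the 19 members over 600 bases the same medians were -0.16, -0.14 and 0.02 on the normal diet and -0.07, -0.01 and 0.26 with high salt.

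Other short genes leaned the same way by smaller amounts. The 263 other genes under 300 coding bases had medians of -0.54, 0.31 and 0.41 in normal diet libraries 1 to 3 and of -0.24, 0.25 and -0.19 on high salt. Across 79 members, Spearman's rho of the deviation with coding length ran from 0.57 to 0.62 in library 1 of the normal diet and in 1 and 3 of high salt, and from -0.64 to -0.57 in normal diet libraries 2 and 3 and high salt library 2. Genes of one library share its preparation and depth, so these are descriptions of 6 libraries. Since libraries of both leanings occur on each diet, the members' kidney values carry this spread into every comparison below.

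**Figure D2:**
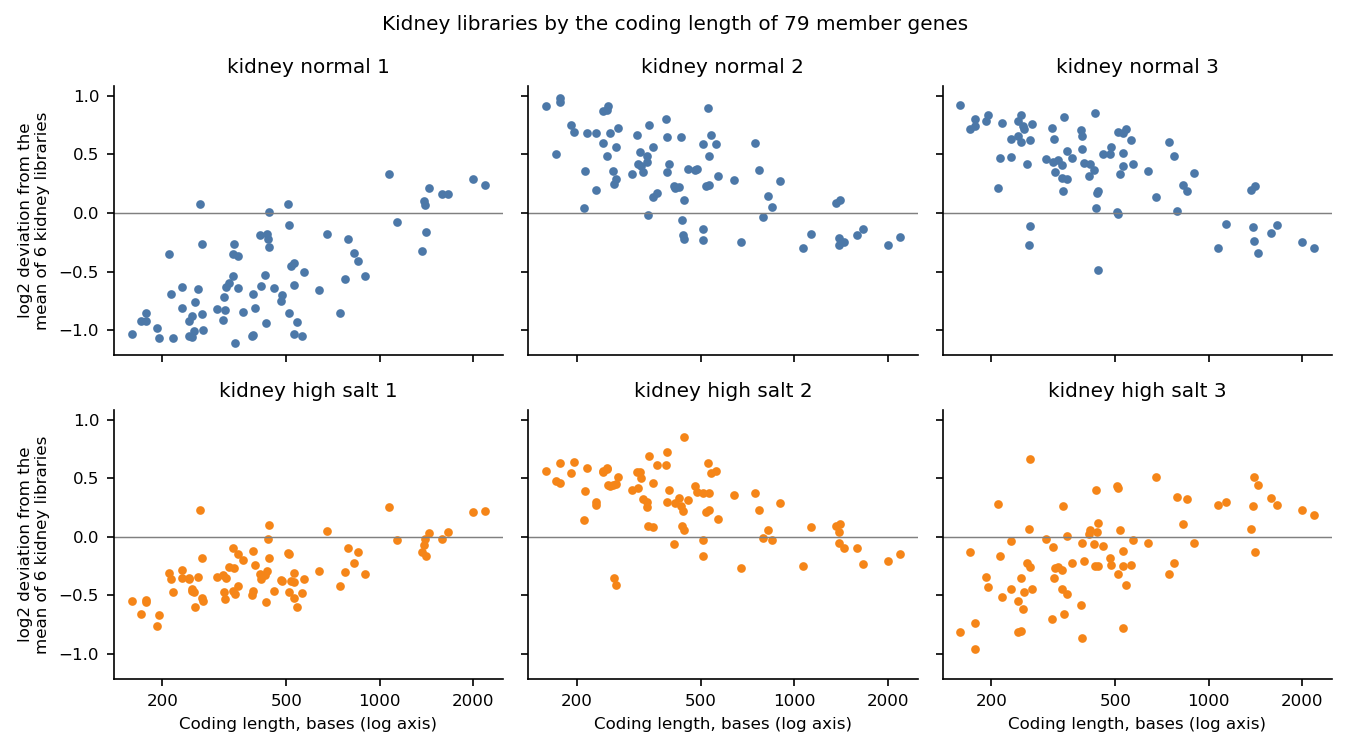
log2 deviation of 79 member genes from the mean of the 6 kidney libraries (vertical axis) against coding length in bases (log axis), one panel per library, normal diet above and high salt below. Short members lie above 0 in normal diet libraries 2 and 3 and high salt library 2, and mostly below 0 in the other 3 libraries.

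In liver the members' sums moved in library pairs. Normal diet libraries 1 and 2 held 16564 and 16901 CPM, and libraries 3 and 4 held 13550.1 and 13740.2. High salt libraries HS5, HS6 and HS8 held 13268, 13288 and 14531 CPM, and HS7 held 16789. The diets therefore overlapped. Libraries 1 and 2 are also those with the lowest mitochondrial-genome shares, 2.3% and 2.06%, and the part of that difference in the sums was not tested.

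No member passed the test for a change with high salt in liver. The edgeR quasi-likelihood test with Benjamini-Hochberg adjustment over 15218 genes called 149 genes (0.979%) at an adjusted p under 0.05, and 0 of the 93 members that passed the filter on low counts. By DESeq2 the number of members called was 6, of which Cox7a1 was higher and 5 were lower, while DESeq2 called 7.59% of all genes (3.57% higher and 4.03% lower). At an unadjusted p under 0.05 stood 18 members (19.4% of 93) and 21.3% of all genes. That count of members was 46 without HS7, 33 and 32 without normal diet libraries 3 and 4, and 6 without HS5. The counts over all genes are not given for these fits, so whether the members moved more than other genes is not shown. Without normal diet libraries 1 and 2 together the count was 6 of 93 members, against 2548 of 15929 genes. Fold changes of members leaned downward, with a median of -0.35 on the log2 scale against -0.03 over all genes, and 84 of 93 lay below 0 against 52.4% of all genes. With length and GC offsets the median was -0.08, against -0.01 over all genes, and 60 of 93 lay below 0. With no scaling factor the members gave the same median and count, but the median over all genes was 0.25, so members still lay below other genes. Other genes under 300 coding bases and those from 300 to 600 bases had medians of -0.29, against -0.40 and -0.33 for members of these lengths. Over 600 bases the other genes had a median of 0.05, against -0.32 for the members. Summed hepatocyte markers ran from 80614 to 132542 scaled CPM on the normal diet and from 139811 to 169140.3 on high salt, with no overlap. Alb made up most of that sum, at 46639.7 to 75275 and then at 101839.6 to 128825. Cyp2e1 was lower on high salt with no overlap, at 9361 to 14540 and then at 5966 to 8351. For each of the other hepatocyte markers the diets overlapped. Immune markers summed to 116 to 247 and then to 71.6 to 133. The part of these markers in the members' values was not tested.

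HS7 stood apart from the other high salt libraries here, with a median log2 deviation of 0.36 for the 22 members under 300 coding bases, against -0.40, -0.46 and -0.22 in HS5, HS6 and HS8. The downward lean also varied with the libraries used. With HS5 and HS6 summed the median was -0.27, 80 of 93 members lay below 0 and 7 had an unadjusted p under 0.05. Of all 15525 genes in that fit, 2080 had an unadjusted p under 0.05. There edgeR called 9 genes higher and 5 lower (0.0902%), and 0 members. Without normal diet libraries 1 and 2 the median was -0.11 and 64 of 93 members lay below 0, and with HS5 and HS6 also summed it was -0.02 and 50 members lay below 0. By complex the medians over all libraries were -0.29 for complex I, -0.42 for complexes II and III, -0.37 for complex IV and -0.38 for complex V. Without libraries 1 and 2 they were -0.12, 0.11, -0.03, -0.12 and -0.16 in that order. On unscaled CPM the sum of all members changed by -4.7% on high salt, and stood 6.0% above the mean of normal diet libraries 3 and 4. Complex II moved most between these readings, from 4.8% to 27.4% above normal.

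**Figure D3:**
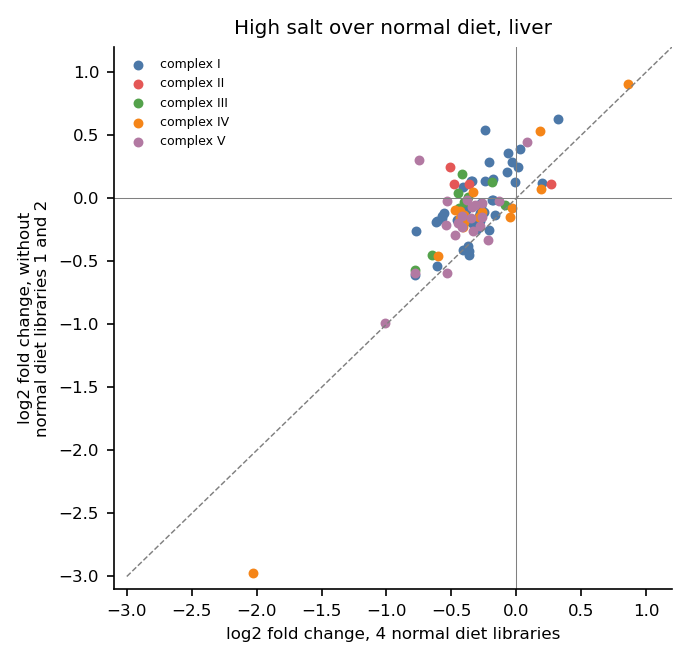
log2 fold change of each of 93 members on high salt over normal diet in liver, with all 4 normal diet libraries (horizontal axis) and without libraries 1 and 2 (vertical axis); the dashed line marks equal values. Most points lie left of 0 and above the line, and 29 members are above 0 on the vertical axis.

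The members with the smallest p-values in liver were mixed in kind. Cox7a1, the heart and skeletal muscle isoform of a small complex IV subunit, stood at 1.99, 2.22, 2.15 and 1.66 scaled CPM on the normal diet and at 3.33, 3.28, 5.25 and 2.94 on high salt. All 4 high salt libraries lay above all 4 normal diet libraries. Its log2 fold change was 0.86 ± 0.25 (SE), with an adjusted p of 0.120 in edgeR and 0.0304 in DESeq2. Groups that do not overlap were seen for 5 of 93 members and for 12.1% of all genes tested. The predominant liver form, Cox7a2, stood at 341 scaled CPM in normal diet liver, so the Cox7a1 counts of 46 to 55 per normal diet library and 104 to 167 per high salt library are a small part of this subunit's messages.

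Lower values on high salt were led by 2 copies and a complex IV subunit. Ndufa12-ps, a copy with 2 differences from Ndufa12, stood at 51.9, 54.1, 52.2 and 41.5 scaled CPM on the normal diet and at 32.1, 31.9, 37.3 and 31.7 on high salt, a log2 fold change of -0.61 ± 0.14 (adjusted p = 0.0679, edgeR). Atp5l-ps1, a copy of the ATP synthase subunit g gene Atp5l, stood at 4.80, 6.48, 6.24 and 4.28 and then at 2.33, 2.74, 3.84 and 2.06. Its log2 fold change was -1.01 ± 0.26 (adjusted p = 0.0878, edgeR). In both copies the groups do not overlap. Cox5a, a nuclear subunit on the matrix face of complex IV, stood at 287, 317, 292 and 199 scaled CPM and then at 189.7, 179, 213 and 153. Here normal diet library 4 fell among the high salt values, with a log2 fold change of -0.60 ± 0.18 (adjusted p = 0.129, edgeR). Without normal diet library 4, edgeR called Cox5a (adjusted p = 0.0465) and Ndufa12-ps (0.0393). Without HS7 it called 1 member, Ndufb2, an accessory subunit of complex I.

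None of the 8 named catalytic and cofactor subunits passed in liver. Their log2 fold changes ran from -0.46 (Ndufv1) to 0.27 (Sdha), and only Sdha lay above 0. Sdha, the flavoprotein that oxidises succinate, stood at 381, 387, 514 and 415 scaled CPM on the normal diet and at 583, 564, 457 and 476 on high salt (log2 fold change 0.27 ± 0.17, adjusted p = 0.392, edgeR). Ndufv1, which holds the flavin that accepts electrons from NADH, stood at 309, 332, 196 and 232 and then at 208, 218, 189 and 172 (-0.46 ± 0.19, adjusted p = 0.199, edgeR). Atp5b, the catalytic beta subunit of ATP synthase, stood at 1834, 2022, 1556 and 1323 and then at 1375, 1332, 1259 and 1124 (-0.42 ± 0.18, adjusted p = 0.217, edgeR). In each of the 3 the diets overlapped. Ndufs1 had a log2 fold change of -0.07 ± 0.19 and Ndufa4l2, the low relative of Ndufa4, one of 0.32 ± 0.36, and neither passed.

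Cox6b2, the testis form of a complex IV subunit, was uneven within each liver group. It stood at 0.325, 0.378, 10.3 and 7.26 scaled CPM on the normal diet and at 0.298, 0.126, 0.346 and 3.74 on high salt, so that 3 of 8 libraries held nearly all of it. No testis marker of those listed was in either table, and the fold change of -2.03 ± 1.24 did not pass.

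Kidney gave no call on high salt either. Of 15674 genes tested, edgeR called 0 (0.00%), and 314 (2.00%) had an unadjusted p under 0.05. Of 93 members tested, 0 were called, 0 had an unadjusted p under 0.05, and DESeq2 also called 0. Without normal diet library 1, 29 of 95 members and 2624 of 16187 genes had an unadjusted p under 0.05, and 0 were called. The members' median log2 fold change was -0.16 against -0.02 over all genes, and 68 of 93 lay below 0 against 53.8% of all genes. Leaving out 1 library moved the median from -0.47, without normal diet library 1, to 0.01, without normal diet library 3. The length spread was in these values too. Members under 300 coding bases had a median of -0.41, those from 300 to 600 bases -0.22 and those over 600 bases 0.12. Other genes of the same lengths had -0.17, -0.10 and -0.01. With length and GC offsets the members' medians changed little, to -0.39, -0.18 and 0.05.

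Members with the smallest p-values in kidney went in both directions. Atp5g2, a low gene for the c subunit, stood at 0.858, 0.654 and 0.46 scaled CPM on the normal diet and at 0.94, 1.93 and 0.634 with high salt (0.80 ± 0.54). Ndufv1 stood at 100.4, 78.8 and 80.8 scaled CPM on the normal diet and at 94.2, 92.1 and 136 on high salt, a log2 fold change of 0.29 ± 0.22. Ndufa9, a complex I subunit of the matrix arm, stood at 94, 87.1 and 93.2 and then at 96.8, 104 and 122 (0.22 ± 0.19), with no overlap. Its groups and those of Cox6a2, which was too low to be tested, were apart among the 98 members, and 6.49% of all genes tested were apart. Atp5mpl, a very small protein of the ATP synthase, stood at 119.7, 418 and 363 and then at 147, 298 and 129 (-0.68 ± 0.52). Ndufa11, a membrane-arm subunit of complex I, stood at 19.8, 60.9 and 70 and then at 26, 46.3 and 32.5 (-0.56 ± 0.47). The low normal diet library for both genes is library 1. Atp5g1, the other named gene for the c subunit, had a log2 fold change of -0.28 ± 0.22, and all adjusted p-values were 1 in edgeR.

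A joint fit of all 14 libraries compared the response to salt in kidney with that in liver. It called 0 of 16878 genes (0.00%) and 0 of 97 members in edgeR, and DESeq2 called 0 members. At an unadjusted p under 0.05 stood 2 members against 9.74% of all genes. These were Cox7a1, with a kidney minus liver difference of -1.19 ± 0.53, and Ndufv1, with 0.77 ± 0.32 (adjusted p = 0.492 and 0.473, edgeR). The median difference of the members was 0.16, with 26 of 97 below 0 against 49.8% of all genes, and ran from -0.18, without normal diet liver libraries 1 and 2, to 0.34, without normal diet kidney library 3.

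Between the tissues on the normal diet, members were called in both directions in nearly equal numbers. The joint edgeR fit called 64.0% of 16878 genes, 32.0% higher and 32.1% lower in kidney, and 43 of 97 members (44.3%), 21 higher and 22 lower. Of the 21, 4 did not pass the filter on low counts in liver alone (Atp5l2-ps, Cox4i2, Cox6a2 and Uqcrh-ps2), so their calls are tied to that filter. Groups did not overlap for 32 of 97 members and for 57.9% of all genes. The members' median log2 fold change was -0.08, with 54 of 97 below 0 against 50.1% of all genes, and single members ran from -1.87 to 4.02. With no scaling factor the median over all genes moved from 0.00 to 0.95 and that of members to 0.88, with 59 members called higher and 5 lower. With upper quartile scaling 30 were higher and 14 lower, where the median over all genes was 0.29. Counts called over all genes are not given for either of these fits. With length and GC offsets 32 members were higher and 19 lower, against 5063 and 5643 of all 16878 genes. All 21 members called higher kept their direction in these fits, and of the 22 lower members 14 kept it without a scaling factor. Leaving out the factor moved folds in general upward, so higher members could hardly lose their direction there. These counts therefore do not compare how stable the higher and lower calls are. The liver and kidney tables were deposited separately, so a difference between tissues and a difference between their preparations cannot be told apart.

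Calls in complex II and in the catalytic head and c ring of complex V were all in the direction of lower in kidney. All 4 complex II genes had values below 0, and 3 passed. Of the 5 genes of the F1 head of ATP synthase 3 were lower, and of the 3 c-ring genes 2. Complex IV had 7 members higher and 3 lower, and of those 7, 3 are low tissue isoforms and 2 are copies. The share called was 75% in complex II, 60% in the F1 head, 66.7% in the c ring and 55.6% in complex IV. Over all genes it was 64.0%, with 32.0% higher and 32.1% lower. These sets are small, and their directions were not tested against that share. Without a scaling factor Atp5a1, Atp5b, Atp5g3 and Sdha had values of 0.24 to 0.28, above 0 but below the median of 0.95 over all genes in that fit.

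Ndufv1 had the lowest fold among the members called. It stood at 309, 332, 196 and 232 scaled CPM in liver and at 100.4, 78.8 and 80.8 in kidney, and every kidney library was below every liver library (log2 fold change -1.65 ± 0.23, adjusted p = 1.81e-05, edgeR). Atp5d, the delta subunit in the central stalk, stood at 257, 244, 183 and 232 and at 85.4, 68.8 and 81.4 (-1.57 ± 0.21, adjusted p = 8.44e-06). Uqcrc1, a large core protein of complex III, stood at 339, 362, 211 and 239 and at 129, 93.5 and 87.8 (-1.50 ± 0.24, adjusted p = 6.04e-05). Neither overlapped. Further members called lower with no overlap included the accessory complex I subunits Ndufa13 (-1.61), Ndufa2 (-1.58) and Ndufb7 (-1.43), Atp5g1 (-1.50) and Cox8a (-1.24). Sdhb, the iron-sulphur subunit of complex II, stood at 393, 424, 219.5 and 229 in liver and at 123, 171 and 189 in kidney with no overlap (adjusted p = 0.0041, edgeR). With length and GC offsets Sdhb no longer passed (-0.18, adjusted p = 0.455), nor did Atp5b (-0.24, adjusted p = 0.324), whereas Ndufv1 did (-0.74, adjusted p = 0.0031).

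Uqcrb, the ubiquinone-binding protein of complex III, was the clearest abundant member in the other direction. Uqcrb stood at 92.9, 101, 104 and 73.7 scaled CPM in liver and at 176, 347 and 341 in kidney, with no overlap (1.61 ± 0.29, adjusted p = 0.000182, edgeR). In the high salt libraries the same contrast gave 1.45 (adjusted p = 0.000487). Ndufb4, an accessory complex I subunit, stood at 37.2, 37.2, 19.7 and 19.7 and at 48.8, 158 and 159 (2.07 ± 0.46, adjusted p = 0.0011), but its counts cannot be separated from those of a copy, as given below. Atp5md, a small membrane subunit of ATP synthase, rose by 1.63 ± 0.46 (adjusted p = 0.00628), with kidney library 1 at 107 inside the liver range of 60.2 to 121. Ndufs1 (0.03 ± 0.22) and Uqcrfs1, the Rieske protein (-0.38 ± 0.25), did not pass, and Sdhd at -0.69 ± 0.40 did not either.

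**Figure D4:**
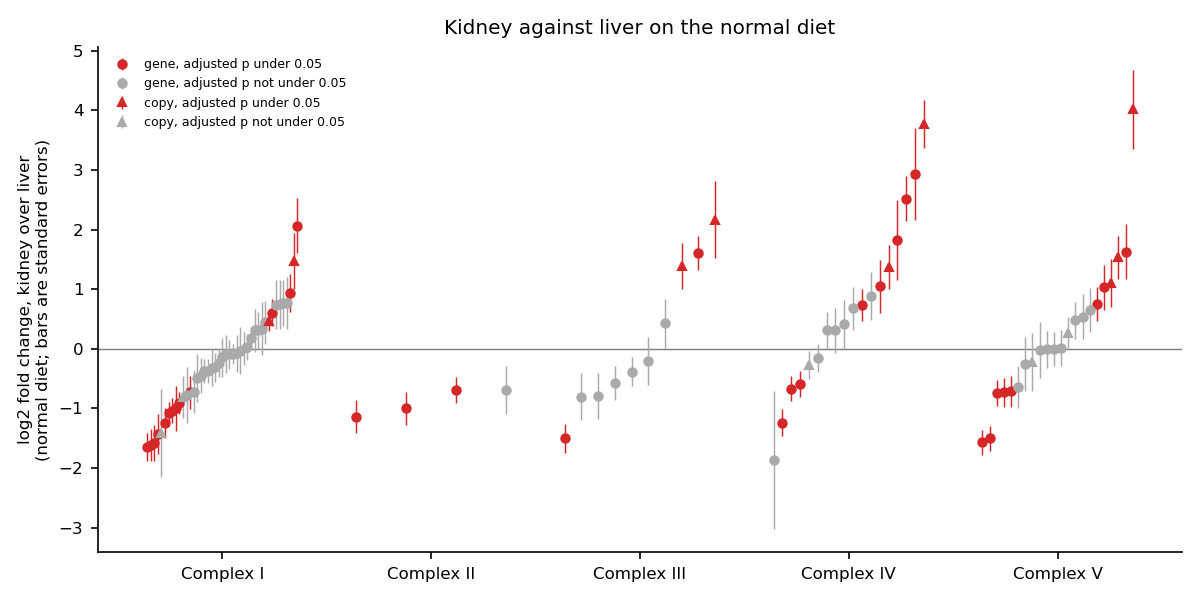
log2 fold change of kidney over liver on the normal diet for 97 members, by complex and ranked within it, with standard errors; triangles are copies and red marks an adjusted p under 0.05. All 4 complex II genes lie below 0, and the highest points of complexes III, IV and V include copies.

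Length also ran through the tissue folds. Members under 300 coding bases had a median of 0.43, those from 300 to 600 bases -0.09 and those over 600 bases -0.69, while other genes of the same lengths had 0.24, 0.09 and -0.04. With length and GC offsets the members' medians were 0.29, 0.14 and -0.24. The number called varied with single kidney libraries: without normal diet kidney library 2, 11 members were higher and 19 lower, and without library 1, 29 and 19. Counts over all genes are not given for these fits, so whether the members changed more than other genes is not shown.

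Several subunits exist in alternative forms, whose levels are compared as scaled CPM per kilobase of transcript. Cox4i1 stood at 1143 ± 349 in normal diet liver and 1441 ± 685 in kidney, and its oxygen-regulated, lung-rich relative Cox4i2 at 0.133 ± 0.0635 and 0.504 ± 0.0957. Cox6a1 stood at 530.3 ± 122 and 358 ± 54.6, and the heart and muscle form Cox6a2 at 0.0967 ± 0.0713 and 0.826 ± 0.108. Cox7a2 stood at 517 ± 96.7 and 974 ± 540.2, Cox7a1 at 5.10 ± 0.64 and 29.8 ± 15.1, and Cox7a2l, which helps join complexes III and IV into supercomplexes, at 144 ± 22.6 and 132 ± 37 (SD; n = 4 and 3 throughout). The liver forms led in both tissues by a wide margin.

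The minor form Cox7a1 was called higher in kidney, by 2.52 ± 0.38 (adjusted p = 3.74e-05, edgeR). Cox4i2 and Cox6a2 passed the filter on low counts in the joint fit but in neither tissue alone, so their calls, also higher in kidney, are tied to that filter and are given as counts only. Cox4i2 had 1 to 4 counts in normal diet liver libraries and 6 to 8 in kidney, and Cox6a2 had 1 to 4 and 8 to 12. Cox7a1 had 88 to 308 counts per normal diet kidney library. In kidney, Cox6a2 had 11, 8 and 12 counts with the normal diet and 7, 3 and 0 with high salt, too few to pass the filter for a test. Of 15 striated muscle markers, 8 were in the kidney table. They summed to 8.85 to 13 scaled CPM on the normal diet and to 2.24 to 5.01 on high salt, with all 8 detected in each normal diet library. Their part in the Cox6a2 values was not tested.

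The c subunit of the ATP synthase ring comes from genes that encode the same mature protein behind different import signals. Per kilobase, Atp5g3 led at 709 to 981 in the 4 normal diet liver libraries and 553 ± 167 in kidney, followed by Atp5g1 at 191 ± 40.2 and 68.6 ± 12.4. Atp5g2 stood at 0.906 ± 0.263 and 0.899 ± 0.272. The order Atp5g3, Atp5g1, Atp5g2 was the same in both tissues, and their ranges did not overlap in either. Cox8a stood at 525 ± 123 per kilobase in liver and 226 ± 43.5 in kidney, and its muscle form Cox8b had at most 4 counts in a liver library. In kidney Cox8b had 0, 0 and 1 counts with the normal diet and 15, 5 and 0 with high salt. The 6 fat markers summed to 2.69, 12.9 and 1.61 scaled CPM and then to 14.8, 7.58 and 0.985, so the diets overlapped, and among them the brown fat gene Ucp1 was at 0, 0 and 0 and then at 1.56, 1.17 and 0.148. Their part in the Cox8b values was not tested. Ndufa4 stood at 1332 ± 173 and 2311 ± 1301, and Ndufa4l2 at 0.870 ± 0.314 and 1.52 ± 0.366.

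The 15 copies took 2.48% to 3.08% of the members' counts in liver and 4.42% to 5.73% in kidney. Of the 15, 9 were called higher in kidney and none lower, against 32.0% and 32.1% of all genes. Among the 9 are Atp5l2-ps and Uqcrh-ps2, which did not pass the filter on low counts in liver alone. Their calls are tied to that filter. Copies differ from their parents by 0 to 85 bases, and where few bases differ, reads within the shared stretch can be divided between the pair only by estimation. Ndufb4c, at chr15:73809507-73809896 (mm10), has 0 differences from Ndufb4 over its 390 bases. It was nevertheless given 84.3% to 88.6% of the pair's counts in liver and 74.6% to 81.1% in kidney. The pair together stood at 202 ± 73.4 scaled CPM in normal diet liver and 615 ± 319 in kidney (SD; n = 4 and 3). Normal diet kidney library 1, at 249.5, lay inside the liver range of 125 to 266, so the tissues overlapped. With 2 differences each, Ndufa12-ps took 49.5% to 60.7% and Ndufs5-ps 51.7% to 71.4% of their pairs in liver. Values of these rows and of their parents are therefore uncertain.

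Cox7c-ps1 took very different shares of its pair in the tissues. The row lies at chr17:25901856-25902227 on the plus strand (mm10), a transcribed processed pseudogene that overlaps Rab40c on the minus strand. Its parent Cox7c, a small complex IV subunit gene, lies at chr13:86044816-86046904. The coding sequence of Cox7c and the matching stretch of the copy are shown because 2 of their 192 bases differ, G30C and G107A counted from 1 at the A of the start codon, Cox7c base first. Capitals mark these bases (GENCODE M21).
Cox7c: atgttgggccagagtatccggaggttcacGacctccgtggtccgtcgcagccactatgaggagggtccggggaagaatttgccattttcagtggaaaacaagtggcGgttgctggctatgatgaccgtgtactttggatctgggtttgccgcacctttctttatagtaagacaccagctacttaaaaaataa
Cox7c-ps1: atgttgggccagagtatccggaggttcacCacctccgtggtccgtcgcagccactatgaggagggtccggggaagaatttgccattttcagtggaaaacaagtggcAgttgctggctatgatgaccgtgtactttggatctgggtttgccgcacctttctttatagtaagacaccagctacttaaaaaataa
Only reads that cover such a base, or flanking sequence outside this stretch, can tell the rows apart.

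Of the counts of this pair, the copy took 5.04% to 9.89% in the 8 liver libraries and 40.2% to 62.0% in the 6 kidney libraries. Cox7c-ps1 stood at 7.69, 8.0, 8.85 and 8.98 scaled CPM in normal diet liver and at 57.4, 137 and 155 in kidney (3.77 ± 0.40, adjusted p = 9.89e-07, edgeR). Cox7c itself stood at 140.2, 151, 80.7 and 100.3 and at 61.6, 205 and 212 (0.41 ± 0.41, adjusted p = 0.394). Summed over the pair, the level was 148, 159, 89.5 and 109 in liver and 119, 342 and 367 in kidney, so the tissues overlapped. Atp5l2-ps, with 2 differences from Atp5l over 312 bases, took 0.0863% to 0.29% of its pair in liver and 1.03% to 2.03% in kidney. It had the highest fitted fold of all members (4.02), but passed the filter on low counts in kidney and not in liver, so no test is given.

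**Figure D5:**
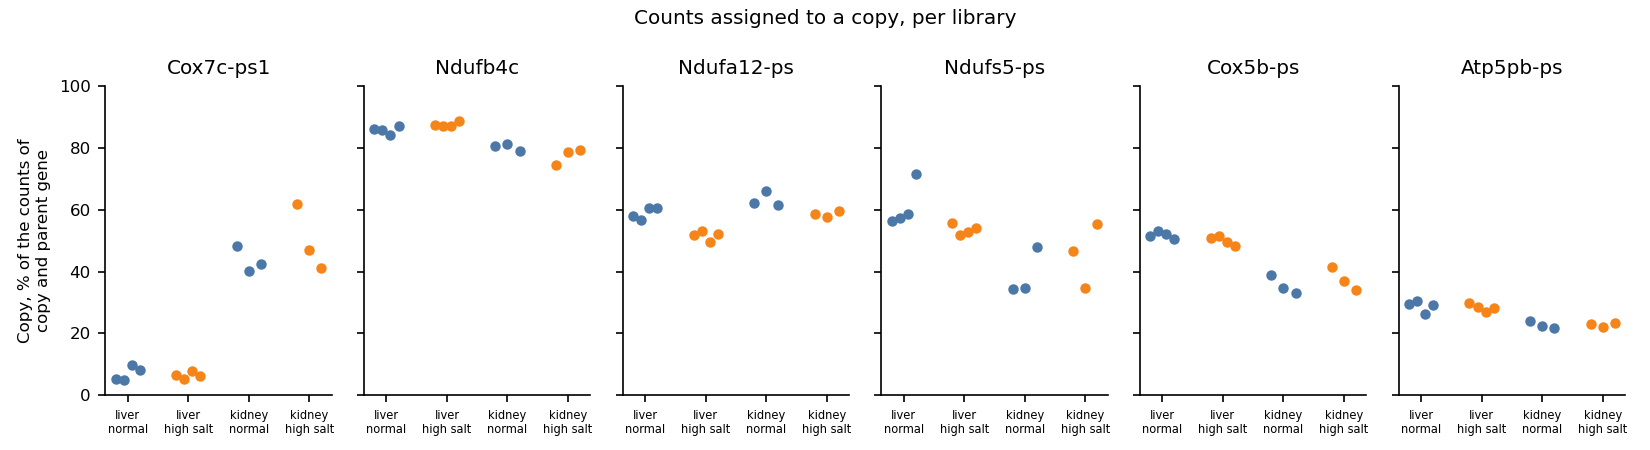
Share of the counts of a copy and its parent that was assigned to the copy (vertical axis, percent), per library, for the 6 copies with the highest shares in kidney; blue is the normal diet and orange high salt. Cox7c-ps1 lies under 10% in every liver library and over 40% in every kidney library, and the other 5 copies differ less between the tissues.

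Genes that act on or beside the chain gave no call with diet in either tissue. The lists held 8 other subunits and carriers, 48 assembly factors (47 tested), 18 regulators, 13 enzymes of the tricarboxylic acid cycle and 9 proteins of the outer membrane and import. In liver their medians were -0.27, -0.34, 0.21, -0.25 and -0.21 on high salt, in that order, against -0.03 over all genes. Of the 47 assembly factors 42 lay below 0, against 52.4% of all genes. Between tissues on the normal diet 7 assembly factors were higher and 16 lower in kidney, of the carriers 2 and 5, of the regulators 6 and 7, and of the cycle enzymes 2 and 5. Over all genes 32.0% were called higher and 32.1% lower.

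Partners of the members differed between the tissues. Ppargc1a, the coactivator known to drive mitochondrial gene programmes, stood at 5.10 ± 1.32 scaled CPM in normal diet liver and 51.1 ± 11.8 in kidney (3.30 ± 0.30, adjusted p = 1.53e-07, edgeR). Cycs, the cytochrome c that carries electrons from complex III to complex IV, stood at 46.6 ± 12.5 and 482 ± 136 (3.35 ± 0.32, adjusted p = 3.15e-07), while Cyc1, the cytochrome subunit of complex III that hands it electrons, stood at 403 ± 129 and 89.2 ± 13.9 (-2.20 ± 0.26, adjusted p = 2.95e-06). Atpif1, the inhibitor protein of ATP synthase, stood at 27 ± 7.4 and 392 ± 157 (3.84 ± 0.32, adjusted p = 7.43e-08). Ndufab1, the acyl carrier subunit of complex I, stood at 25.8 ± 5.95 and 55.8 ± 9.36 (1.09 ± 0.23, adjusted p = 0.000787). All values are means ± SD with n = 4 liver and n = 3 kidney libraries. The tissue contrasts of Cycs and Cyc1 thus lay on opposite sides, as did those of Uqcrb and Uqcrc1 within complex III.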

How the data were processed

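Liver and kidney RNA was measured by SMARTER mRNA-Seq, per the labels' protocols. The authors deposited expected counts per gene, estimated with Partek's E/M quantification per the names of the deposited files, in a table for each tissue. They also deposited normalized values (unit signal), whose method is not given in the sources used here. The submitters' processing notes name mm10, STAR 2.5.3a, Partek 7.0 and DESeq2, with no role or order.

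From the rounded expected counts, without mitochondrial rows, edgeR 4.0.16 (R 4.3.3) was run with TMM scaling, filterByExpr and the quasi-likelihood test, per tissue for diet and jointly for tissue and tissue by diet. P-values were adjusted by Benjamini-Hochberg over all genes tested, with a threshold of 0.05. DESeq2 1.42.0, limma 3.58.1 on the deposited signal values, other scalings and filters, length and GC offsets (mgcv 1.9.3), left-out libraries and a replicate block were alternatives. Scripts were tested on simulated data. Libraries held 16046094 to 51487382 counts, so precision is least for rows under about 10 counts, and SDs cover the spread between libraries.

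Members and lists were chosen with earlier results of these data known. Named genes were those called, or else the 3 smallest p-values in each direction per diet comparison, the 8 highest and 8 lowest tissue folds without overlap, and fixed isoforms, catalytic subunits and partners, whatever their values. A few others (Ndufb2, Cox7c, Atp5md, Atp5l2-ps and copies) were named after their values were seen. Coding lengths and copies come from GENCODE M21, to which 99.9% of symbols matched, and promoters from RefSeq GRCm38.p6. Length classes were split at 300 and 600 coding bases. Same-numbered kidney libraries correlated at 0.414, 0.383 and -0.092, so the numbers were not taken as pairs. Lists of hepatocyte, kidney tubule, striated muscle, fat, immune, adrenal, pancreas and testis markers were summed per library.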

Additional observations from a re-analysis of the deposited data

Results flagged for a closer look

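In the liver groups of 4 libraries, 94 sets of values were checked for a library far from the other 3, and 11 were picked out where chance gives about 4.7. HS7 was the library in 7 of the 11. It stood high for Ndufa4 (1007 scaled CPM, the others 520.2 to 545), Cox7a2 (403, the others 207 to 223), Uqcrh (632, the others 312 to 334), Ndufb4 (38.5, the others 14.8 to 18.2) and Atp5g3 (665, the others 481 to 489.6). It was also high for Cox7a1 (5.25, the others 2.94 to 3.33) and Ndufa12-ps (37.3, the others 31.7 to 32.1). HS5 and HS6, which are nearly alike, are 2 of the 3 others in each case.

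HS8 was high for Cox6b2 (3.74 scaled CPM, the others 0.126 to 0.346) and for Cox8b (0.106, the others 0.0271 to 0.0315, on 4 counts against 1), and low for Cox8a (189.6, the others 229 to 235). Normal diet liver library 4 was high for Cox6a2 (0.138, the others 0.0361 to 0.0468), on 4 counts against 1.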

How the results depend on the processing

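In liver, DESeq2 called 6 members (and 7.59% of all genes) and the fit without a scaling factor 1, against 0 by the edgeR test, and leaving out 1 library gave 0 to 2. The liver median of -0.35 became -0.02 without normal diet libraries 1 and 2 and with HS5 and HS6 summed, an alternative chosen after seeing the data, and ran from -0.46 to -0.26 with 1 library left out. In kidney and for tissue by diet 0 members were called under every alternative run. Between tissues, 43 members were called, 30 to 48 with 1 library left out and 20 (9 higher, 11 lower, 20.8% of members against 49.6% of all genes) with a replicate block over the normal diet libraries. Counts over all genes with 1 library left out are not given. Same-numbered libraries of the 2 tissues correlated at -0.193, 0.169 and -0.143. Such correlations cannot show whether libraries with the same number came from the same mouse, and the labels do not say. In kidney the replicate block called 0 members with a median of -0.13, and in liver no paired analysis was possible because the high salt columns carry no number shared with the normal diet.

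Without a scaling factor the tissue median was 0.88 for members and 0.95 over all genes, so folds in general moved upward. In that fit these members turned to values above 0: Atp5a1 0.24, Atp5b 0.25, Atp5g3 0.24, Cox6a1 0.38, Cox7a2l 0.81, Sdha 0.28, Sdhd 0.29, Uqcrfs1 0.59, Uqcrh 0.74, Atp5g2 0.96 and Ndufa9 0.07. Cox6a1 turned to 0.03 with length and GC offsets, Cox6b2 to 0.31 in the high salt libraries and 0.24 with the replicate block, and Sdhd and Uqcrfs1 to 0.11 and 0.01 without normal diet liver libraries 1 and 2. Members near 0 also changed sign. Atp5g2 (-0.02) became 0.06 in the 7 normal diet libraries, 0.04 with DESeq2 and RLE scaling, 0.69 in the high salt libraries, 0.75 with length and GC offsets, 0.27 with upper quartile scaling, 0.35 without liver libraries 1 and 2, and ran from -0.29 to 0.19 with 1 library left out (0.08 and 0.11 without liver library 1 or 2). Cox7a2l became 0.08 with 10 counts required in every library, 0.14 with length and GC offsets, 0.16 with upper quartile scaling, 0.03 without liver libraries 1 and 2, and ran from -0.33 to 0.05. Uqcrh became 0.02, 0.12 and 0.03 with 10 counts required, upper quartile scaling and without liver libraries 1 and 2, and ran from -0.46 to 0.17. Ndufs1 (0.03) became -0.14 with length and GC offsets and -0.03 with the replicate block, and ran from -0.16 to 0.18. Beyond the general shift without a scaling factor, the cause of the sign changes was not tested. Of the other tissue values under alternatives, 766 kept their direction and side of the threshold, 68 lost and 22 gained a call. Depth limits Cox4i2, Cox6a2 and Cox8b, with at most 15 counts in a library.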
